A study of Mus musculus with 8 samples.

Results

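The class I genes of the major histocompatibility complex (MHC) and their peptide-loading partners, 10 genes in all, were followed in mouse retina with and without PD-L1. They are the heavy chains H2-K1, H2-D1, H2-Q4, H2-Q7 and H2-T23, the light chain B2m, the loading genes Tap1, Tap2 and Tapbp, and the regulator Nlrc5. They were chosen by gene symbol from the deposited count table, and all 10 of 10 were found among its 25477 genes and tested among the 16861 that passed the filter on low counts. The 8 retina samples are named for choroidal neovascularization (CNV), the ingrowth of choroidal vessels beneath the retina, so that the model was common to both groups. In 4 samples the genotype is given as PD-L1 knockout and in 4 as control, named WT in the titles. The sources used here do not give strain, sex, age, the deleted part of the gene, the way CNV was induced or any pooling of animals. Separate animals are nowhere stated, so the p-values cover the spread between these 8 samples alone, and that spread may be technical.

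Class I molecules display peptides from inside the cell to CD8 T cells and natural killer cells. The proteasome cuts proteins to peptides, the TAP transporter moves these into the endoplasmic reticulum, and tapasin with its partner chaperones loads them onto a heavy chain paired with beta-2 microglobulin. Interferons raise the transcription of most of these genes through IRF and other factors, and NLRC5 is the main transactivator of class I promoters, acting through a conserved module of elements. In the healthy retina neurons carry little class I, and microglia, endothelium and glia are the better known sources. PD-L1, encoded by Cd274, is a surface ligand that restrains T cells and other cells carrying PD-1.

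Libraries held 31743404 to 36438248 counts. Cd274 was at 0.252 to 0.435 CPM (counts relative to library size, scaled by TMM factors) in the knockouts and 3.68 to 4.88 CPM in the controls. Y-linked Kdm5d was at 13.1 to 27.2 CPM in the knockouts and at most 0.126 CPM in the controls, while Xist, which female cells express from the inactive X chromosome, was at 2732 to 3462 CPM and 3215 to 5152 CPM. A difference that goes with Kdm5d cannot be told apart from the genotype. Rod markers stood at 36501 to 53454 CPM in sum and were the most abundant of the marker lists. Of these 7 markers edgeR called 0, with 1 at an unadjusted p under 0.05. Of all 16861 tested genes, 3596 had an unadjusted p under 0.05 by edgeR. Lens transcripts summed to 1760 to 6220 CPM in knockout 3, control 2 and control 3 and to 3.25 to 46.3 CPM in the other 5 libraries. Calls with and without those 3 are both given. No batch or date is given in the labels.

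The upstream sequences of the class I genes come first, because several of them share elements there. RefSeq promoter windows of GRCm38.p6 (250 bases before to 50 after the annotated start) were found for 8 of the 10 genes; Nlrc5 and Tap2 are not among them. Below are the 180 bases before the start, 5′ to 3′ on the gene's strand, for the 5 heavy chains and B2m. Capitals mark matches to the kappaB consensus, the IRF core AANNGAAA, TGACG where ATTGG follows 10 to 30 bases later, and every CCAAT (reverse ATTGG). For H2-K1, which has 2 windows, the first listed is used. The starts used for H2-K1 and H2-Q7 lie inside the gene bounds given further on. The H2-K1 stretch therefore lies wholly within those bounds, and that of H2-Q7 in part.
H2-K1, chr17:34000348-34000527, minus strand: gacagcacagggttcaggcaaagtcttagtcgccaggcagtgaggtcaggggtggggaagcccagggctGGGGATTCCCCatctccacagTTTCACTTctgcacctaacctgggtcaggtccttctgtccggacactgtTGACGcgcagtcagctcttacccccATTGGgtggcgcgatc
H2-D1, chr17:35262914-35263093, plus strand: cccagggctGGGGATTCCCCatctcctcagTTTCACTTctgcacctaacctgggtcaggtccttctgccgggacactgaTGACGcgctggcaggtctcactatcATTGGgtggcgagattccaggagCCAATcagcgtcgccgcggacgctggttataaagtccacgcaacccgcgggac
H2-Q4, chr17:35379437-35379616, plus strand: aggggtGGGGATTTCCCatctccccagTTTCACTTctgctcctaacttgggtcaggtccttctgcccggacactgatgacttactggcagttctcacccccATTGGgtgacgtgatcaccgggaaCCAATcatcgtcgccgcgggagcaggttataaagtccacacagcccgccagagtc
H2-Q7, chr17:35438975-35439154, plus strand: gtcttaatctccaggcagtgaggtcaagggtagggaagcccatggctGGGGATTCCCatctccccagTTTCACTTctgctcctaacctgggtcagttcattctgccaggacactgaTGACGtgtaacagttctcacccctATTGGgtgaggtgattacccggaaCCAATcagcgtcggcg
H2-T23, chr17:36032702-36032881, minus strand: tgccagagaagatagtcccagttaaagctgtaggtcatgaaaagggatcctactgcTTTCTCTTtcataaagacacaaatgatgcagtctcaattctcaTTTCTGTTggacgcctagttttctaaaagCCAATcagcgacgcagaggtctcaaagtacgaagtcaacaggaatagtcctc
B2m, chr2:122147507-122147686, plus strand: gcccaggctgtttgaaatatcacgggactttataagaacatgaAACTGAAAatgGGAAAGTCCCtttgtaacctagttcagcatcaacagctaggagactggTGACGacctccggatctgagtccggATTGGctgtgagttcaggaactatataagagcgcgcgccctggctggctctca

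In H2-K1, H2-D1 and H2-Q7 a kappaB match, an IRF core, TGACG and ATTGG follow each other in the same order. TGACG and ATTGG are set apart by 20 bases in H2-K1 and H2-D1, by 19 in H2-Q7 and by 20 in B2m, where the IRF core precedes the kappaB match. This spacing resembles the X2 and Y boxes of the module through which NLRC5 acts. H2-Q4 keeps the kappaB match, the IRF core and ATTGG, but its TGACG lies after ATTGG. H2-T23 has 2 IRF cores and 1 CCAAT and no match to the kappaB consensus. The Tap1 window holds TGACG and CCAAT without that spacing, and the Tapbp window holds 2 copies of ATTGG.

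Searched on both strands, the kappaB consensus matched 5 of the 8 member windows and 4.51% of all 32851 promoter windows, and AANNGAAA 6 of 8 and 23.9%. TGACG matched 6 of 8 and 20.8%, and CCAAT 8 of 8 and 37.4%. The spaced pair occurred in 4 of 8 and in 0.743% of all windows. All 3 elements together (kappaB, IRF core, spaced pair) occurred in 9 windows of 8 genes: H2-K1 with 2 windows, H2-D1, H2-Q7, B2m, H2-M3, H2-Aa, Oasl1 and Nrarp. The motifs were chosen with the member sequences in view, and a match is a description. A window with overlapping kappaB matches counts once.

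**Figure D1:**
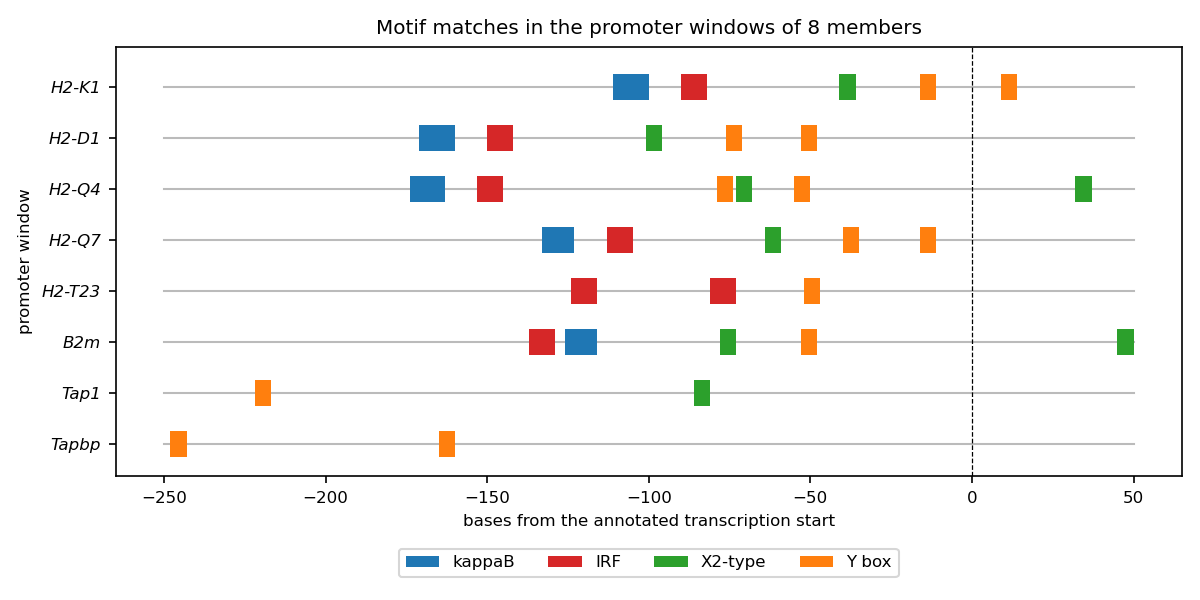
Motif matches along the promoter windows of 8 members, with bases from the annotated start on the horizontal axis and 1 row per gene; coloured boxes are matches on either strand (X2-type is TGACG, Y box is CCAAT). Blue, red, green and orange boxes follow in 1 order in H2-K1, H2-D1 and H2-Q7, while Tap1 and Tapbp have no kappaB or IRF box.

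Class I transcripts were higher in the knockout retina. All 5 heavy chains, B2m and Tap2 rose, none of the 10 fell, and Tap1, Tapbp and Nlrc5 did not pass the threshold. The called share of all tested genes was 2.55%. The median log2 fold change of the 10 was 0.99, against 0.00 over all tested genes. In all, 1.2% were called higher (203 genes) and 1.35% lower (227 genes) by edgeR's quasi-likelihood test at an adjusted p under 0.05. When library totals alone set the scale these became 207 and 131, that is 61.2% of calls higher in place of 47.2%, and the same number of members, 7, was called. All 4 knockouts exceeded all 4 controls for 7 of the 10 genes, against 5.19% of the table tested. Both counts of 7 take in H2-Q7, which passed the filter on low counts through its knockout libraries alone and so adds no support. In whole tissue, more cells of a type and more RNA per cell cannot be told apart.

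The classical heavy chains H2-K1 and H2-D1 present peptides to CD8 T cells. H2-K1 (Entrez 14972, chromosome 17, 33996012 to 34000619) stood at 96.9, 63.7, 95.2 and 90.7 CPM in knockouts 1 to 4 and at 38.3, 39.3, 30.9 and 41.7 CPM in controls 1 to 4. Every knockout lay above every control, and knockout 2 was the lowest of its group. The level rose 2.31-fold (95% interval 1.88 to 2.83; log2 fold change 1.21, SE 0.14, edgeR adjusted p = 0.000901), the 14th smallest p of all tested genes. H2-D1 (Entrez 14964, chromosome 17, 35263094 to 35267497) stood at 139, 93.7, 140 and 113 CPM in the knockouts and at 54.6, 60.2, 54.3 and 71.5 CPM in the controls. The groups did not overlap, with knockout 2 again lowest and control 4 highest of its group. It rose 2.02-fold (95% interval 1.65 to 2.46; log2 fold change 1.01, SE 0.13, adjusted p = 0.00258).

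The non-classical chains H2-Q4, H2-Q7 and H2-T23 lie further along the same complex. H2-T23 (Entrez 15040, chromosome 17, 36029977 to 36032701) encodes Qa-1, which presents leader peptides of other class I chains to the NKG2 receptors of natural killer cells. It stood at 25.5, 13.5, 19.1 and 17.98 CPM in the knockouts and at 6.62, 7.45, 6.32 and 8.58 CPM in the controls. It rose 2.63-fold (95% interval 2.00 to 3.45; log2 fold change 1.39, SE 0.18, adjusted p = 0.00247), with no overlap and knockout 1 the highest. H2-Q4 (Entrez 15015, chromosome 17, 35379617 to 35384674) stood at 28.1, 15.5, 26.7 and 22.99 CPM in the knockouts and at 11.4, 12.9, 11.5 and 11.8 CPM in the controls. Knockout 2 stood nearest to the controls. H2-Q4 rose 1.96-fold (95% interval 1.54 to 2.51; log2 fold change 0.97, SE 0.16, adjusted p = 0.00952).

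H2-Q7 (Entrez 15018, chromosome 17, 35439140 to 35443773), a Qa-2 chain, was near the limit of detection. It had 13, 22, 17 and 14 counts in the knockouts and 1, 0, 2 and 2 in the controls, that is 0.368 to 0.638 CPM against 0 to 0.0616 CPM. The sums were 66 (exact Poisson 95% interval 51.0 to 84.0) and 5 (1.62 to 11.7), intervals that cover counting error only. H2-Q7 passed the filter on low counts through the knockouts alone, so its call and its lack of overlap are not support. The fitted log2 fold change was 3.49 (SE 0.63, adjusted p = 0.0138). Its size depends on few reads, and leaving out knockout 3, control 1 or control 2 lost the call (edgeR adjusted p 0.0522 to 0.0569). The fitted log2 fold change was 3.12 to 3.78 over the 8 fits that left out 1 library, and 0.35 by limma on log2(FPKM + 1), a scale that understates low genes. Knockout 2, the lowest knockout library for 8 of the 10 genes, was the highest for H2-Q7.

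Reads of these chains can fall in more than 1 gene. Of all stretches of 50 bases in the longest coding transcript (GENCODE M21), 34.9% of those of H2-Q7 were also present in transcripts of another gene, 28.8% for H2-T23, 24.3% for H2-Q4, 14.3% for H2-D1 and 8.79% for H2-K1. For stretches of 100 bases these shares were 16.4%, 7.28%, 2.66%, 4.64% and 0%. H2-Q6 shared the most with H2-Q7, 19.3% of its 50-base stretches. B2m and Nlrc5 shared none. The values of H2-Q7, H2-T23, H2-Q4 and H2-D1 are therefore uncertain as to the gene, and the sources used here do not say how reads with several matches were counted.

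B2m (Entrez 12010, chromosome 2, 122147687 to 122153082) is the light chain that every classical class I molecule needs to reach the surface, and it lies outside the complex. It stood at 112, 75.6, 109 and 120 CPM in the knockouts and at 54.1, 49.6, 49.9 and 52.4 CPM in the controls. The controls had an SD of 2.13 CPM and all lay below knockout 2, the lowest knockout. B2m rose 2.02-fold (95% interval 1.68 to 2.44; log2 fold change 1.02, SE 0.12, adjusted p = 0.00157).

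**Figure D2:**
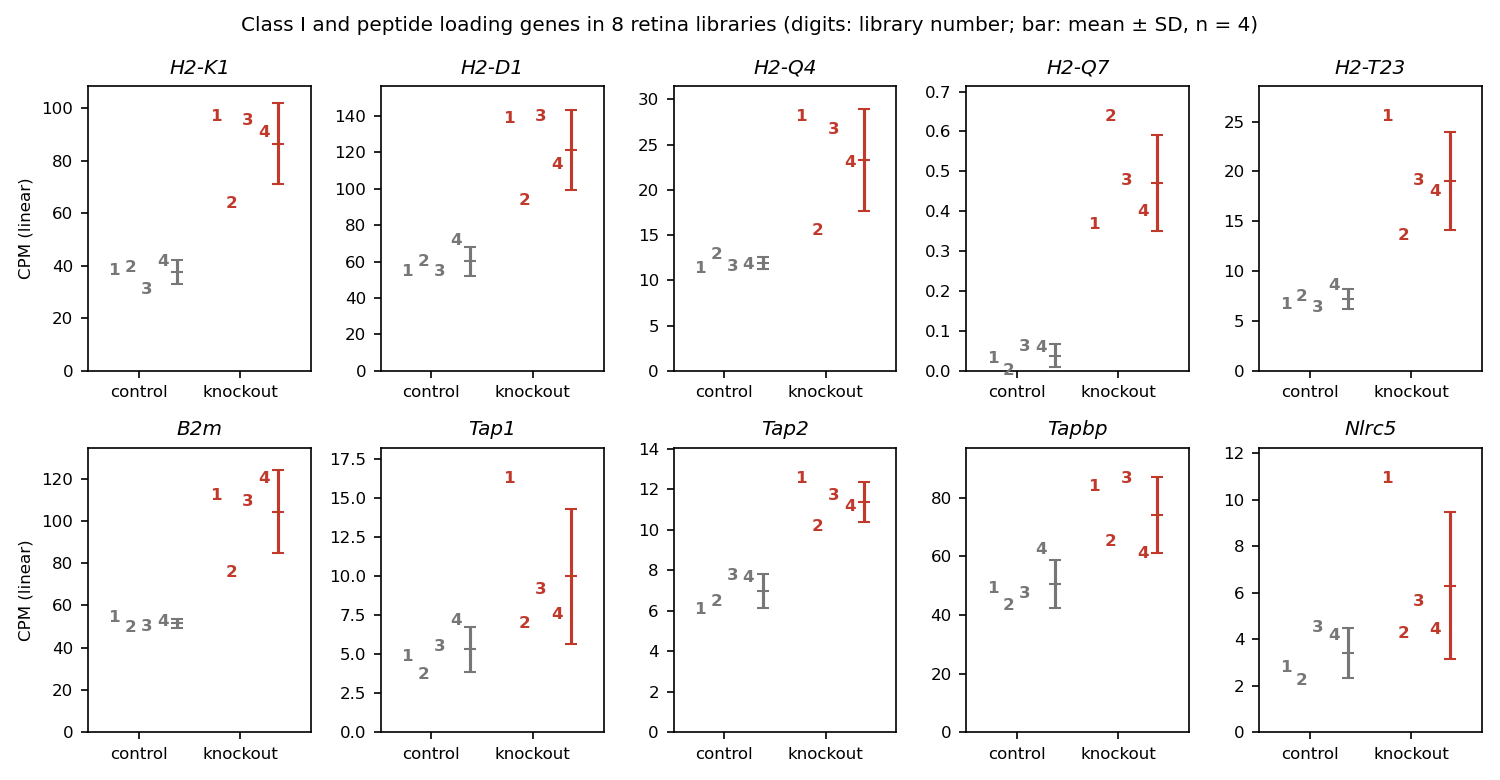
CPM of each of the 10 genes on a linear axis that starts at 0, with digits for the library number in the control (grey) and knockout (red) groups and bars for the mean ± SD of 4 libraries. The groups stand apart for the 5 heavy chains, B2m and Tap2, while Tap1, Tapbp and Nlrc5 overlap.

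The loading genes moved less evenly. Tap2 (Entrez 21355, chromosome 17, 34204479 to 34216321), a subunit of the peptide transporter, stood at 12.6, 10.2, 11.7 and 11.1 CPM in the knockouts and at 6.08, 6.47, 7.76 and 7.64 CPM in the controls. It rose 1.63-fold (95% interval 1.32 to 2.00; log2 fold change 0.70, SE 0.14, adjusted p = 0.0217) with no overlap. Leaving out knockout 1, 3 or 4, or control 1 or 2, lost the call (edgeR adjusted p 0.0515 to 0.0888), though the log2 fold change stayed between 0.64 and 0.75 over all 8 libraries left out in turn.

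Tap1 (Entrez 21354, chromosome 17, 34187556 to 34197225), the partner subunit, stood at 16.3, 6.95, 9.18 and 7.58 CPM in the knockouts and at 4.89, 3.71, 5.48 and 7.19 CPM in the controls. Knockout 1 was far above the rest, and knockout 2 fell below control 4. Its log2 fold change was 0.91 (SE 0.27, adjusted p = 0.089), and the value without knockout 1 was 0.56. Without control 4 it was 1.09 and passed (adjusted p = 0.012).

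Tapbp (Entrez 21356, chromosome 17, 33919478 to 33929290) encodes tapasin, which holds empty class I molecules at the transporter. It stood at 84.0, 65.2, 86.7 and 61.0 CPM in the knockouts and at 49.0, 43.3, 47.3 and 62.3 CPM in the controls, so that knockout 4 alone fell below control 4. Its log2 fold change was 0.56 (95% interval 0.26 to 0.85, SE 0.14, adjusted p = 0.0514). Without control 4 it was 0.67 and passed (adjusted p = 0.00251).

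Nlrc5 (Entrez 434341, chromosome 8, 94434335 to 94527272) stood at 10.9, 4.26, 5.63 and 4.43 CPM in the knockouts and at 2.79, 2.23, 4.50 and 4.17 CPM in the controls. Knockout 1 stood apart, and knockouts 2 and 4 lay below control 3. Its log2 fold change was 0.88 (95% interval 0.19 to 1.57, SE 0.32, adjusted p = 0.142), and without knockout 1 it was 0.47. Leaving out any of the 8 libraries did not bring Nlrc5 past the threshold (edgeR adjusted p 0.0508 to 0.322).

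Control 4, the highest control library for 5 of the 10 genes, and the lens-rich libraries weighed on these calls. Without control 4, 9 of the 10 were called, among 3209 of 17146 tested genes in all. Without knockout 3, control 2 and control 3, none of the 10 was called (edgeR; 15 genes in all, 3 knockouts against 2 controls). The log2 fold changes were then 1.07 for H2-K1, 0.88 for H2-D1, 0.95 for H2-Q4, 1.33 for H2-T23, 0.95 for B2m and 0.72 for Tap2 (edgeR adjusted p 0.0535 to 0.382). For H2-Q7 it was 3.27 and for Tapbp 0.34, with adjusted p = 0.391 and 0.67. H2-K1, H2-D1, H2-Q4, H2-T23 and B2m were called in each of the 8 fits that left out 1 library, with adjusted p up to 0.0483 for H2-Q4.

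**Figure D3:**
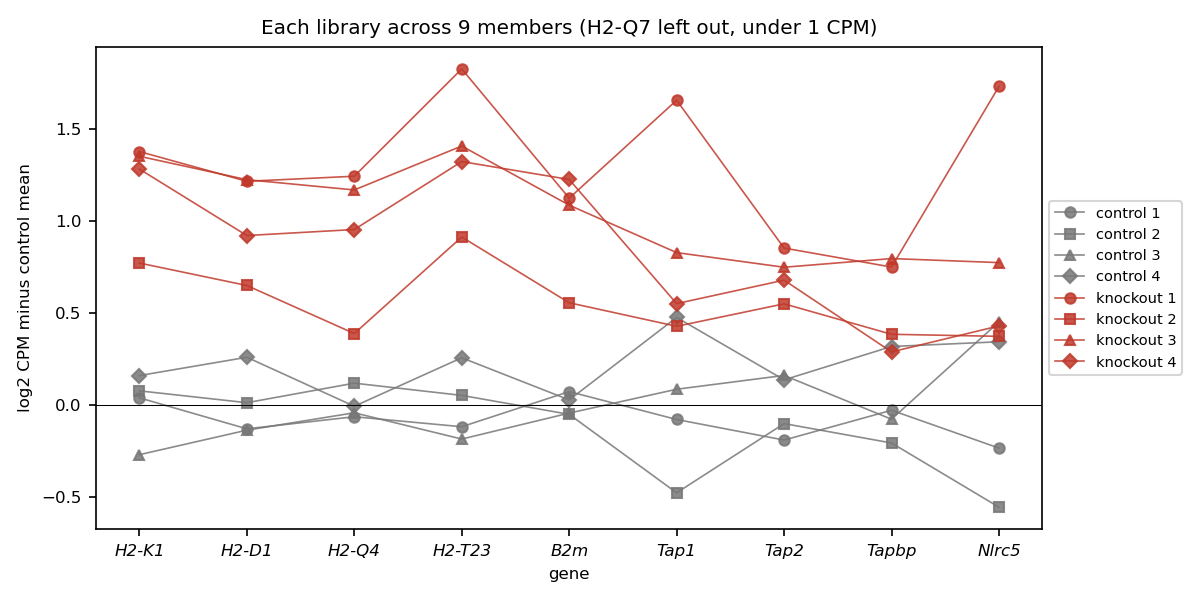
Log2 CPM minus the control mean for 9 of the 10 genes, with 1 line per library (grey control, red knockout). Knockout 1 peaks at H2-T23, Tap1 and Nlrc5, knockout 2 runs lowest of the knockouts at most genes, and red and grey lines meet at Tap1, Tapbp and Nlrc5.

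Per unit of gene length, B2m was the most abundant of the 10 in both groups. The deposited FPKM (counts scaled by gene length and library size) of B2m averaged 122 ± 23.97 in the knockout and 59.6 ± 2.98 in the control (SD, n = 4 each). H2-D1 followed at 70.3 ± 13.2 and 34.4 ± 4.51, and H2-K1 at 40.0 ± 7.45 and 17.1 ± 2.11. In the controls H2-K1 and Tapbp (18.2 ± 3.00 FPKM) did not differ beyond their spread, while in the knockouts H2-K1 lay above Tapbp (27.2 ± 4.82 FPKM). H2-T23 and H2-Q4 were neighbours as well, at 14.6 ± 4.08 and 13.1 ± 3.27 FPKM in the knockout and 5.45 ± 0.751 and 6.58 ± 0.328 FPKM in the control, within their spread in the knockout. Tap2 stood at 4.60 ± 0.476 and 2.78 ± 0.328 FPKM and Tap1 at 3.43 ± 1.56 and 1.79 ± 0.491, within each other's spread in the knockout. Nlrc5 was at 0.809 ± 0.423 and 0.429 ± 0.136 FPKM, and H2-Q7 at 0.307 ± 0.0752 and 0.0246 ± 0.0186.

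The 2 classical heavy chains and the light chain were also compared as proportions. The FPKM of H2-K1 and H2-D1 together came to 0.761 to 0.975 of that of B2m in the knockouts and 0.777 to 0.987 in the controls. H2-K1 and H2-D1 made up 77.9% to 81.1% of the FPKM of the 5 heavy chains in the knockouts and 80.1% to 82.1% in the controls. The ranges of the groups overlap for both proportions, and a difference in makeup was not tested.

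Each gene was also set against B2m within its own library, which removes the scaling of libraries. Of 9 such log2 ratios, none passed after adjustment, while 2 had an unadjusted p under 0.05 (exact two-sided permutation tests over 70 arrangements, smallest possible p = 0.0286, Benjamini-Hochberg adjusted p 0.129 to 1). At the smallest p, the mean log2 ratio to B2m was -0.48 ± 0.34 in the knockout and -0.04 ± 0.20 in the control for Tapbp, a difference of -0.44, and the difference for H2-Q7 was 2.39 (exact permutation p = 0.0286 each). The ratio of H2-T23 was 0.37 higher and that of H2-K1 0.20 higher in the knockout (exact p = 0.0857 each), while that of H2-D1 differed by 0.00 (exact p = 1). At least 6 of the 9 ratios would have had to reach the smallest p for any to pass after adjustment, so no gene could pass alone, and these tests do not settle whether the increases differed in size.

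**Figure D4:**
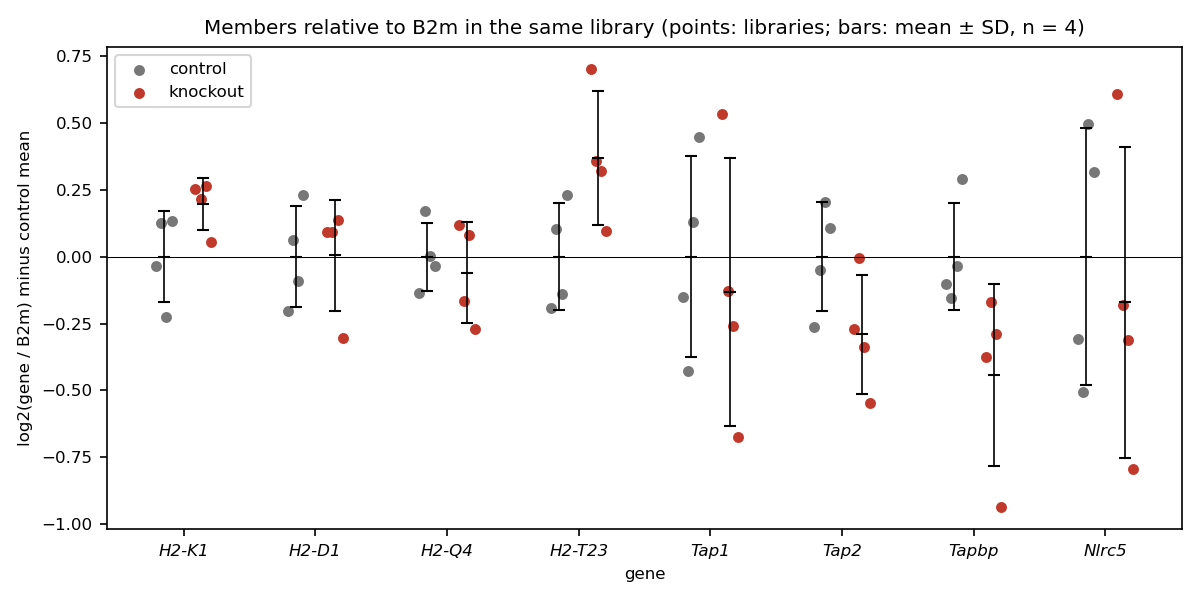
Log2 ratio of 8 genes to B2m in the same library, minus the control mean, with points for libraries and bars for mean ± SD of 4 libraries. Knockout points of Tapbp lie lowest against the controls, with a mean 0.44 below, while the group means of H2-D1 differ by 0.00.

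Among themselves the genes varied together within groups to unequal degrees. Pearson's r between a gene's deviations from its group means (log2 CPM, 8 libraries) and the mean deviation of the other 9 was 0.92 for Tap1, 0.84 for Nlrc5, 0.82 for Tap2 and Tapbp, 0.74 for H2-D1 and 0.70 for H2-T23. It was 0.52 for H2-Q4, 0.47 for B2m, 0.46 for H2-K1 and 0.06 for H2-Q7. The libraries share depth and tissue makeup, so these are descriptions. Except for the r of H2-Q7 itself, the means take in H2-Q7, at 0 to 2 counts in each control. Its deviation was -1.53 in control 2 and 0.77 in control 3. Of all tested genes outside the 10, the 5 whose deviations were most like the members' mean, H2-Q7 included, were picked over 8 libraries. They were Slc25a1 (r = 0.99), Prpf31 (0.99), Cited4 (0.98), Ddx27 (0.97) and Erap1 (0.97). Erap1 trims peptides for class I. None of these 5 was called between genotypes (edgeR adjusted p 0.26 to 0.914).

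Genes that supply peptides rose in part. Of 7 immunoproteasome and proteasome activator genes, 3 rose and none fell, with a median log2 fold change of 0.47. Psmb8, an inducible catalytic subunit encoded between Tap1 and Tap2, rose from 5.48 ± 0.947 to 10.4 ± 2.63 CPM (SD, n = 4 each; log2 fold change 0.93, SE 0.19, edgeR adjusted p = 0.0297). Psmb10 rose by 0.63 (SE 0.13, adjusted p = 0.0305) and Psme1, an activator subunit, by 0.47 (SE 0.09, adjusted p = 0.022). For Psmb9, next to Tap1 and chosen after its values were seen, the log2 fold change was 1.20, the SE 0.30 and the adjusted p = 0.0539, with no overlap. The count of 3 became 0 without knockout 3, knockout 4, control 1 or control 3, and 1 without knockout 2. It was 2 without knockout 1 or control 2, or by limma on log2(FPKM + 1). Without the lens-rich libraries, or with the replicate number as a block, it was 0. By DESeq2, by limma on log2(FPKM + 0.1), with no filter on low counts or without control 4 it was 4.

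Other genes that act in class I assembly were not called by edgeR. Of 10 genes such as calreticulin, calnexin and Erap1, edgeR called 0 (5 at an unadjusted p under 0.05, all higher), DESeq2 called 1 and limma on log2 FPKM 0. The median was 0.32. For Sec61a1, of the protein channel of the endoplasmic reticulum, the log2 fold change was 0.33 with adjusted p = 0.0661, and for Tapbpl, the tapasin-related editor, it was 0.46 with adjusted p = 0.13. Without control 4, 6 of the 10 were called, as were 3209 of all 17146 tested genes.

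The remaining class I heavy chains of the complex were not called. Of 15 listed, 9 were in the table and 6 were tested, with a median of 0.64. EdgeR called 0 of them, DESeq2 2 and limma 0. By edgeR 3 had an unadjusted p under 0.05, all higher, against 3596 of all 16861 tested genes. H2-T24 averaged 2.33 ± 0.587 CPM with knockout and 1.08 ± 0.176 CPM without (SD, n = 4 each), a log2 fold change of 1.10 whose adjusted p was 0.0603 by edgeR, with no overlap. H2-T22 averaged 14.9 ± 4.04 and 10.2 ± 1.46 CPM, a log2 fold change of 0.55 with adjusted p = 0.122. Without control 4, 1 of the 6 was called, as were 3209 of all 17146 tested genes.

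Of 15 factors that act on class I promoters, 2 rose and none fell, with a median of 0.07. Irf9, which joins the complex that carries type I interferon signals to promoters, rose from 30.8 ± 0.869 to 45.3 ± 10.4 CPM (SD, n = 4 each), by 0.55 on the log2 scale (SE 0.13, edgeR adjusted p = 0.0494). The count of 2 became 0 without knockout 3, control 1, control 2 or control 3, without the lens-rich libraries, or by limma on log2(FPKM + 1). It was 1 without knockout 1 or 4, with library totals or upper quartile scaling, with a filter at 1 CPM, or with the replicate block. By limma on log2(FPKM + 0.1) it was also 1. By DESeq2, with no filter on low counts or without control 4 it was 3. For Rfx5, which binds the X box and was chosen after its values were seen, the log2 fold change was -0.27 (95% interval -0.49 to -0.05) with adjusted p = 0.162.

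Class II genes, which present peptides to CD4 T cells and depend on Ciita in place of Nlrc5, were tested alongside. Of 10 listed, 6 were tested. EdgeR called 0, with 0 at an unadjusted p under 0.05, and DESeq2 and limma called 0. The median was -0.06. H2-DMb1 and H2-DMa, which have the smallest p of the list, had log2 fold changes of 0.59 (95% interval -0.42 to 1.60) and 0.21 (-0.19 to 0.62). H2-Aa, chosen after its values were seen because its promoter also holds the 3 elements above, stood at 2.80 to 3.65 CPM in the knockouts and 2.04 to 5.64 CPM in the controls, a log2 fold change of -0.05 (95% interval -0.69 to 0.58). Control 1 was the highest library for H2-Aa. The other non-members with the 3 elements are given here after their values were seen. Their log2 fold changes were 1.02 for H2-M3, 1.01 for Oasl1 and -0.03 for Nrarp. None of these was called (edgeR adjusted p = 0.124, 0.313 and 0.933). The difference between the class I and class II lists was not itself tested.

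**Figure D5:**
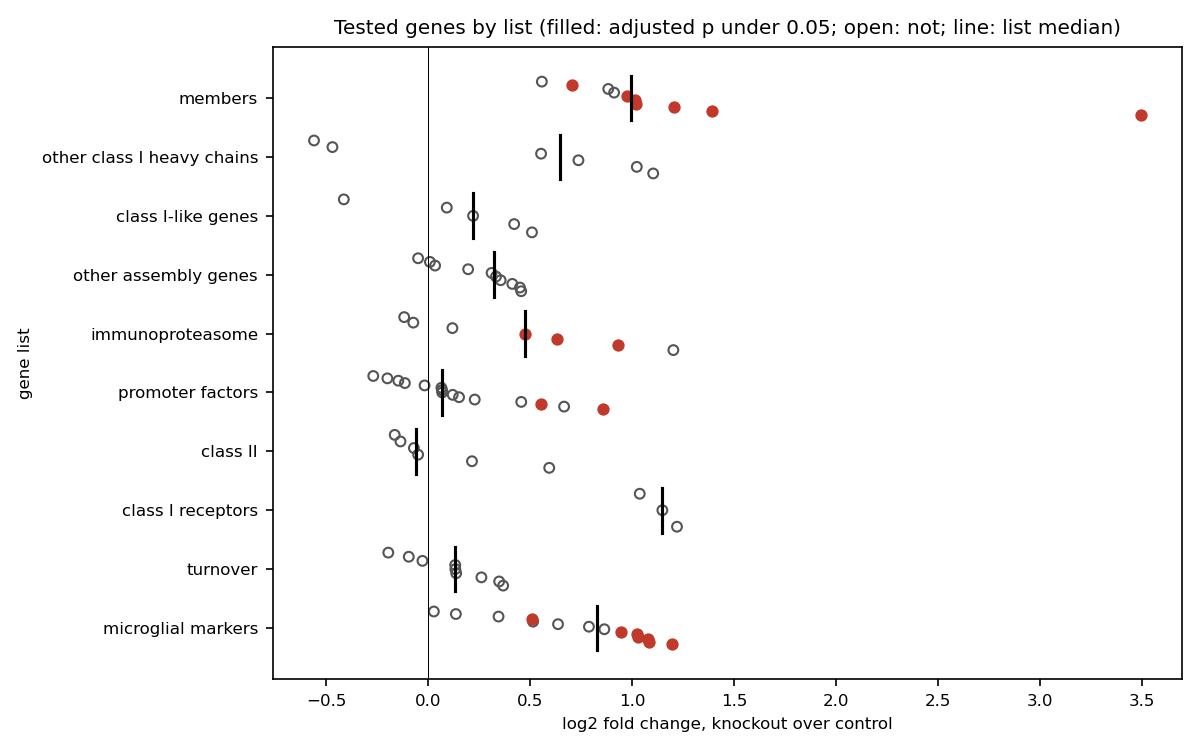
Log2 fold change of each tested gene, knockout over control, by gene list; filled points passed an adjusted p under 0.05, open points did not, and vertical lines are list medians. Members centre on 0.99 and class II on -0.06, with filled points among the members, the immunoproteasome, the promoter factors and the microglial markers.

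Microglial markers were higher in the knockouts in sum, as the class I genes were. All tested markers of pigment epithelium, Müller glia and endothelium also had positive log2 fold changes. Those of the tested lens and red cell markers were all negative. The part of any cell type in the result was not tested. The 14 microglial markers summed to 188 to 239 CPM in the knockouts and 103 to 160 CPM in the controls; 7 rose, none fell and the median was 0.83. C1qa, a complement gene, rose by 1.20 on the log2 scale, and the value for P2ry12, a marker of resting microglia, was 0.03 with SE 0.20; both were chosen after their values were seen. Control 1 had the highest microglial sum of the controls and control 4 the lowest, whereas control 4 had the highest class I sum of the controls. Knockout 2 had the lowest sum of the knockouts in both. Of 8 Müller glia markers 2 rose (Crym and Vim), and their sums overlapped at 3526 to 4892 and 3386 to 4239 CPM. Of 6 pigment epithelium markers 1 rose and none fell, 5 had an unadjusted p under 0.05 (all higher), and the median was 0.93, at sums of 127 to 289 and 68.7 to 154 CPM. The 8 endothelial markers summed to 284 to 311 and 214 to 295 CPM, with 0 called by edgeR and 4 at an unadjusted p under 0.05. Red cell transcripts were lower in every knockout (1.68 to 4.03 CPM) than in every control (10.09 to 14.5 CPM).

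Lymphocytes, the readers of class I, left few reads. The 12 T and natural killer markers in the table summed to 1.75 CPM in knockout 1 and 0.715 to 0.927 CPM in the other knockouts. In the controls they summed to 0.533 to 0.769 CPM, and 10 of the 12 stayed under 10 counts in every library. None was at 0 in all libraries and none passed the filter for a test. The 4 B cell markers, none tested, summed to 0.252 to 0.435 and 0.237 to 0.847 CPM. Of 12 listed receptors that bind class I, 11 were in the table and 3 were tested, with 0 called by edgeR, DESeq2 or limma and 2 at an unadjusted p under 0.05. The inhibitory myeloid receptors Lilrb4a and Pirb gave log2 fold changes of 1.22 and 1.04 with adjusted p = 0.142 and 0.218.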

How the data were processed

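Polyadenylated RNA of 8 retina samples from mice was sequenced. The authors deposited whole read counts per gene, not normalized, and FPKM (scaled by gene length and by library size). They used fastp, HISAT2, HTSeq and mm10, per the submitters' processing notes. The sources used here give no versions, annotation, strand setting or filters, so overlapping and antisense genes cannot be told apart. Every column matched a sample title.

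From the counts, edgeR 4.0.16 (R 4.3.3) computed CPM and every main test, with TMM scaling, filterByExpr (minimum count 10, total 15) and the quasi-likelihood test of knockout against control, two-sided, with Benjamini-Hochberg adjustment over all 16861 tested genes and a threshold of 0.05. The SE is the absolute log2 fold change over the root of F, and intervals use it; with 1 count worth 0.028 to 0.0314 CPM, levels under 1 CPM rest on few reads. Ratios to B2m used counts plus 0.5 and were chosen after values were seen. Replicate libraries differed beyond sampling noise. The code was tested on simulated counts.

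The members and gene lists were chosen with earlier results of these data known. Genes named are the 10 members, up to 4 called genes per list or the 2 with the smallest p where none was called, the 5 genes most like the members, genes of the complex on chromosome 17 with the smallest p, and Cd274, Kdm5d and Xist; others are marked, and 2 genes that this rule names are not reported here. Positions and promoters are from RefSeq (GRCm38.p6) by Entrez identifier, transcripts from GENCODE M21. Alternatives were other scalings and filters, DESeq2 1.42.0, limma 3.58.1 on log2(FPKM + 1) and log2(FPKM + 0.1), a replicate block and libraries left out.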

Additional observations from a re-analysis of the deposited data

How the results depend on the processing

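For 9 of the 10 members the log2 fold change stayed positive under all 18 alternatives. For H2-Q7 it was read under 16 of them and was positive in each. The members called ranged from 5 to 9 with 1 library left out, against 7. They numbered 0 without the 3 lens-rich libraries, where 15 genes were called in all. The genes called, 430, became 690 with no filter on low counts, 1320 by DESeq2, 228 by limma on log2(FPKM + 1) and 108 (without knockout 3) to 3209 (without control 4) with 1 library left out. With log2(FPKM + 1) 65.8% of calls were higher and with log2(FPKM + 0.1) 64.5%. The title numbers are not said to pair the samples. Correlations of deviations were 0.20, -0.04, 0.10 and 0.01 for numbers 1 to 4, and -0.26 to 0.22 between libraries of unlike number. So few values do not decide whether samples were paired. With the replicate block 228 genes and 5 members were called, Tap2 and H2-Q7 missing the threshold (edgeR adjusted p = 0.0525 each). DESeq2 called Tap1, Tapbp and Nlrc5 as well and gave no adjusted p for H2-Q7, which the filter at 1 CPM removed. At 0 to 22 counts a library, depth limits H2-Q7. The cause of these changes was not tested.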

Other observations

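Neighbouring genes of the complex were counted as well. Between Tapbp and H2-T23 (chromosome 17, 33919478 to 36032701) 93 genes other than the members were tested, of which 4 were called higher (edgeR), none lower, with a median log2 fold change of 0.10. These were the complement gene C4b (1.40, adjusted p = 0.00783), Psmb8 (0.93), the collagen receptor Ddr1 (0.54, adjusted p = 0.0378) and D17H6S56E-5 (1.11, adjusted p = 0.0378). Without the listed class I, class II and immunoproteasome genes, 83 were left and 3 were called. Over the whole table, 203 of 16861 tested genes (1.2%) were called higher.

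Genes built on the class I fold outside the complex were at modest levels. Of 5 tested, edgeR called 0 (2 higher and 1 lower at an unadjusted p under 0.05), DESeq2 1 and limma 0, with a median of 0.22. Hfe, a regulator of iron uptake that binds B2m, stood at 10.98 to 12.3 CPM in the knockouts and 13.9 to 17.2 CPM in the controls, with no overlap. Its log2 fold change was -0.41 (SE 0.12) with adjusted p = 0.0732. For Mr1, which presents vitamin metabolites to T cells, it was 0.42 with adjusted p = 0.145. Without control 4, 1 of the 5 was called, as were 3209 of all 17146 tested genes. Of 9 genes of heavy chain turnover, edgeR, DESeq2 and limma each called 0. By edgeR 3 had an unadjusted p under 0.05, all higher, against 3596 of all 16861 tested genes. For Marchf9, a ubiquitin ligase, the log2 fold change was 0.35 with adjusted p = 0.137. Without control 4, 4 of the 9 were called, as were 3209 of all 17146 tested genes.

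In 20 groups of 4 values (10 genes, 2 groups), no library was far enough from the rest to pass Dixon's criterion at 95%, including knockout 1 for Tap1 and Nlrc5.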
